A study of Homo sapiens with 6 samples.

Results

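The genes described here are the 34 genes of glycolysis and the pentose phosphate pathway in Mon-Mac-6 cells, from glucose and lactate transporters to the pyruvate dehydrogenase gate, taken by symbol from the 31853 genes of the deposited table with no threshold on their values. Mon-Mac-6 is a human cell line established from an acute leukaemia of monocytic type. Poly(A) RNA was sequenced after 48 h in 2 groups of 3 libraries, given either DMSO as the vehicle or WD6305 at 500 nM, which the series title describes as a METTL3 PROTAC. METTL3 is the catalytic subunit of the enzyme that writes N6-methyladenosine on messenger RNA, and a PROTAC brings its target protein to a ubiquitin ligase. The line is the only genetic background studied, both groups share it, and no separate origin of the 3 libraries of a group is stated, so p-values measure the spread between these libraries, which may be technical. Library totals were 64525948 to 71155346 estimated counts. Keratinocyte transcripts summed to 212 to 260 CPM in 4 libraries and to 8.93 and 7.35 CPM in DMSO 3 and WD6305 1, 1 in each group, while fibroblast transcripts reached 42.7 CPM in WD6305 1 and 1.32 to 2.60 elsewhere.

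Glycolysis splits glucose into pyruvate in the cytosol, with phosphofructokinase as its main controlled step, and yields ATP and NADH. Pyruvate is either reduced to lactate and exported or passed to mitochondria through pyruvate dehydrogenase. The pentose phosphate pathway branches off after hexokinase: its oxidative arm yields NADPH, which phagocytes use for the oxidative burst and for protection against oxidants, and its non-oxidative arm makes ribose phosphate for nucleotides or returns carbon to glycolysis.

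Transporters and enzymes along the glycolytic chain fell with WD6305, SLC2A1, PFKM, LDHA and SLC16A1 among them, while HK3, a hexokinase found mainly in myeloid cells, and the oxidative pentose phosphate enzymes PGD and PGLS rose. Of the 34 genes, 16 fell (47.1%), 3 rose (8.82%) and 15 did not pass the test (edgeR quasi-likelihood test, Benjamini-Hochberg adjusted p under 0.05 over all 18138 genes tested). Among all genes tested, 11.2% fell and 12.2% rose, or 23.4% in either direction. All 34 passed the filter on low counts. Their median log2 fold change, WD6305 minus DMSO, was -0.18 with a range from -0.85 to 1.36, against a median of 0.000333 over all genes tested. The libraries of the groups did not overlap in 24 of the 34 (70.6%; 40.8% of all genes tested), with 21 of these lower and 3 higher (20.3% and 20.4% of all genes tested). From glucose entry to lactate export, 13 of 25 genes fell and HK3 rose, with a median of -0.26. In bulk RNA, fewer cells of one state and less RNA per cell cannot be told apart. Without DMSO 3 and WD6305 1 18 of the 34 genes fell and 3 rose: PGD, HK3 and, in place of PGLS (adjusted p = 0.0554), PDK1 (adjusted p = 0.0472).

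**Figure D1:**
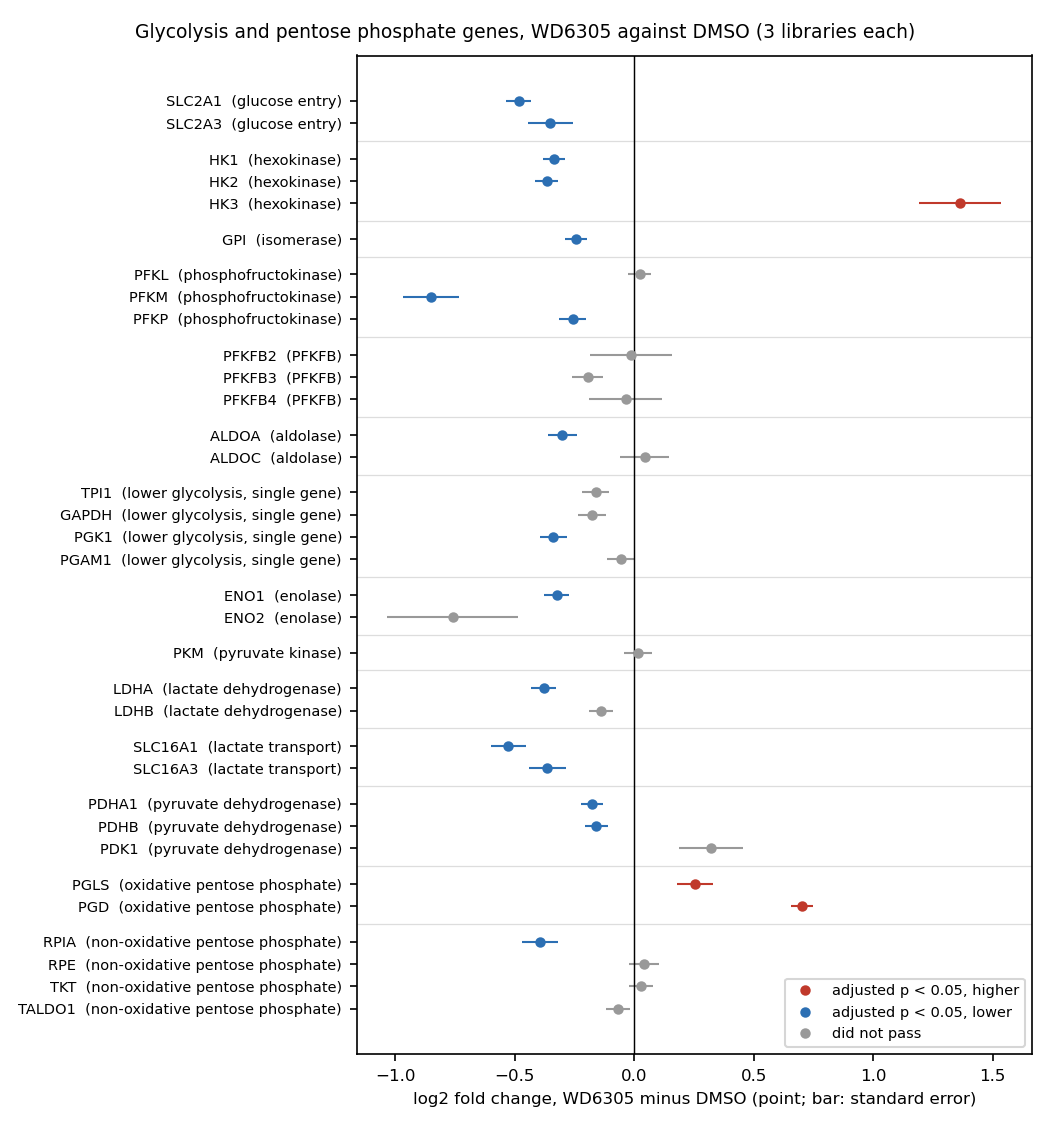
Log2 fold change (WD6305 minus DMSO, point) with its standard error (bar) for each of the 34 genes in pathway order, 3 libraries per group. Most points from SLC2A1 to SLC16A3 lie below 0, PFKM at -0.85 is the lowest, and HK3 at 1.36 and PGD at 0.70 are the highest.

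Levels are given as CPM, counts scaled to library size, for one gene between libraries, and as FPKM, which corrects for transcript length, between genes. With DMSO, mean FPKM ranged over the chain from 1137 for GAPDH, which oxidises glyceraldehyde phosphate, through 607 for the enolase ENO1, 382 for the aldolase ALDOA and 352 for the pyruvate kinase PKM, down to 0.37 for PDK1, a kinase that restrains pyruvate dehydrogenase. The glucose transporters and hexokinases sat far lower on this scale, at 20.2 for SLC2A1 and 26.0 for HK2, and HK3 at 1.62. The genes that fell included abundant transcripts, such as ENO1, and scarce ones, such as PFKM at 4.55.

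**Figure D2:**
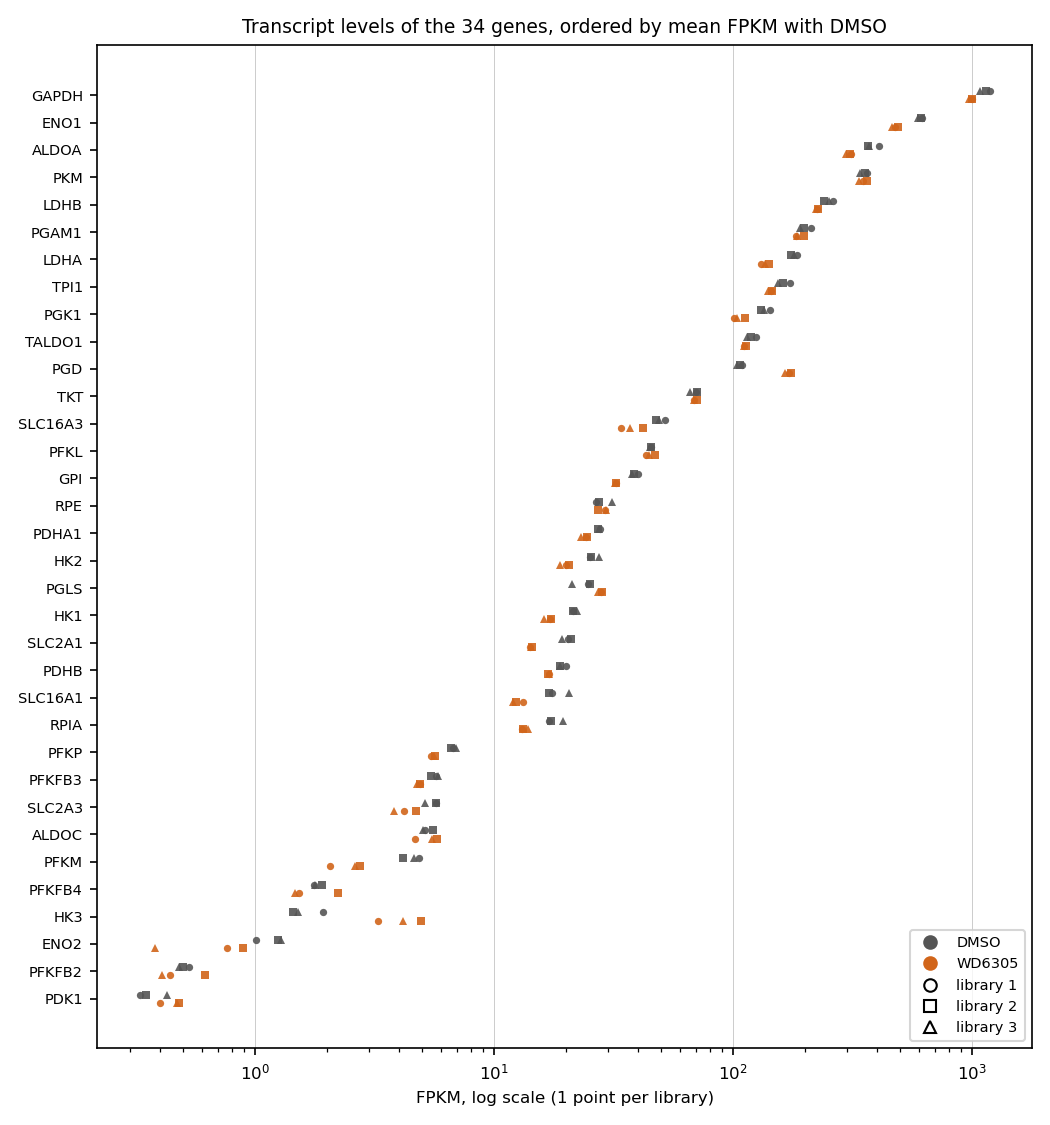
FPKM of each of the 34 genes in each library on a log axis, ordered by the mean with DMSO (grey: DMSO, orange: WD6305, symbols: libraries 1 to 3). Levels run from GAPDH at 1137 with DMSO to PDK1 at 0.37, and HK3 and PGD are the clear shifts to the right.

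Sequences upstream of 4 genes are shown because MYC and the carbohydrate-responsive MLX partners, whose shared motif is the E-box CACGTG, and hypoxia-inducible factors, whose core motif is ACGTG and less strictly GCGTG, are known regulators of these enzymes. The stretches show a pair of genes that fell and a pair that rose. They come from RefSeq (GRCh38.p14), read 5′ to 3′ on the gene's strand, without bases that lie in an annotated exon. Capitals mark each match to these 3 motifs on either strand. The reverse of the hypoxia core reads CACGT, and each E-box counts as a match to that core too.

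PGK1, phosphoglycerate kinase, fell, chrX:78103998-78104173, plus strand: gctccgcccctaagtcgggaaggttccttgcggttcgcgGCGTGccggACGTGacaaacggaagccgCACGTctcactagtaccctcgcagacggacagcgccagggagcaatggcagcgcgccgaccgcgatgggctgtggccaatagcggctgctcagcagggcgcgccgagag
LDHA, lactate dehydrogenase A, fell, chr11:18394313-18394387, plus strand: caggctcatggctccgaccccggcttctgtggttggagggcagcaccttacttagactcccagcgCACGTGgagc
HK3, hexokinase, rose, chr5:176899347-176899596, minus strand: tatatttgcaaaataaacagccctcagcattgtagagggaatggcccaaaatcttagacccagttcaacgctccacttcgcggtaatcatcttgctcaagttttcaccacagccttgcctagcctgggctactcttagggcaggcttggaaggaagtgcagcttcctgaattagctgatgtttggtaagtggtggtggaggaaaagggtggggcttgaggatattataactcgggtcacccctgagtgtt
PGD, phosphogluconate dehydrogenase, rose, chr1:10398814-10399043, plus strand: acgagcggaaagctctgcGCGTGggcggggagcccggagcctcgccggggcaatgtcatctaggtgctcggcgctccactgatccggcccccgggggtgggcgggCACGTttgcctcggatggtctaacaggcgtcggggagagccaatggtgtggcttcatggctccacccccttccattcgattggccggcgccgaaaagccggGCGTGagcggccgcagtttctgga

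The PGK1 stretch holds the GCGTG form 211 bases before the RefSeq transcript start, and the other core on the forward strand at 202 and on the reverse strand at 183. LDHA has the E-box 185 bases before the start. The GCGTG form is also present in 1 of its 2 promoter windows, outside the stretch shown. PGD has the GCGTG form at 232 and 44 and the reversed other core at 145, and the HK3 stretch has no match. The stretches are 176 bases long for PGK1, 75 for LDHA, 250 for HK3 and 230 for PGD. Numbers of matches are therefore not comparable between them. In the 250 bases before each start, CACGTG was present in 7 of the 31 genes with a RefSeq promoter (22.6%) and in 11% of 11672 tested genes, and ACGTG in 51.6% against 28.3%. GCGTG was present in 51.6% of the 31 and 51.8% of the tested genes. These genes have 57 promoter windows between them, and counted per window CACGTG stood in 12.3%, against 6.34% of all 35116 windows, and ACGTG in 33.3% against 18.5%. Of the 14 genes that fell and have a window, 4 hold CACGTG: HK2, ALDOA, LDHA and PDHB. The other genes that hold it, ALDOC, GAPDH and PFKFB3, did not pass the test. A match is a description of letters and says nothing of binding in these cells.

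Both glucose transporters fell. SLC2A1 (GLUT1, ENSG00000117394, minus strand, 1:42925353-42958868 on GRCh38), the basal glucose transporter, was at 144, 147 and 132 CPM in DMSO 1, 2 and 3 and at 99.8, 101 and 102 CPM in WD6305 1, 2 and 3. The WD6305 libraries lay close together and all below the DMSO libraries. The level went from 141 ± 8.13 to 101 ± 0.915 CPM (SD, n = 3 libraries), a log2 fold change of -0.48 (SE 0.05, edgeR adjusted p = 0.00037), or 1.40-fold lower. SLC2A3 (GLUT3), the higher-affinity transporter, went from 35.3 ± 2.68 to 27.7 ± 2.73 CPM (log2 fold change -0.35, adjusted p = 0.0264). Its call was lost without DMSO 1, DMSO 2, WD6305 1 or WD6305 3 and with no filter on low counts (adjusted p = 0.0608 to 0.109). SLC2A1 supplied 78.6% of the summed FPKM of the pair with DMSO and 77.0% with WD6305 (exact permutation p = 0.3).

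The hexokinases, which trap glucose as glucose phosphate, moved apart: HK1 and HK2 fell and HK3 rose. HK1 (10:69269984-69401884), the widely expressed enzyme, was at 143, 142 and 144 CPM with DMSO and at 116, 116 and 109 CPM with WD6305. Its log2 fold change was -0.34 (SE 0.04, adjusted p = 0.00102). HK2 (2:74834127-74893359), the inducible enzyme of fast-growing cells, was at 159, 158 and 168 CPM with DMSO and at 127, 130 and 120 CPM with WD6305. The log2 fold change of HK2 was -0.37 (SE 0.05, adjusted p = 0.00107). HK3 (5:176880869-176899346, minus strand) was at 6.77, 5.05 and 5.19 CPM with DMSO and at 11.6, 17.3 and 14.9 CPM with WD6305. The lowest WD6305 library stood above the highest DMSO library, the mean was 2.57-fold higher and the log2 difference 1.36 (SE 0.17, adjusted p = 0.00081). HK3 kept its call and its direction in each of 17 alternative analyses.

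Per length, HK3 held 3.30% ± 0.571 of the summed hexokinase FPKM with DMSO and 10.1% ± 1.79 with WD6305 (SD, n = 3 libraries). The shares were 3.96%, 2.99% and 2.95% in the DMSO libraries and 8.07%, 11.5% and 10.7% in the WD6305 libraries, with no overlap. HK2 stayed the largest at 52.7% and 48.6%, and HK1 held 44.0% and 41.3%. The summed FPKM of the 3 genes was 49.3 with DMSO and 40.8 with WD6305. For each of the 3 shares the exact permutation test, two-sided, returned p = 0.1, the lowest value open to 3 against 3 libraries, and 0.2 after Benjamini-Hochberg adjustment over 14 isozyme shares.

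**Figure D3:**
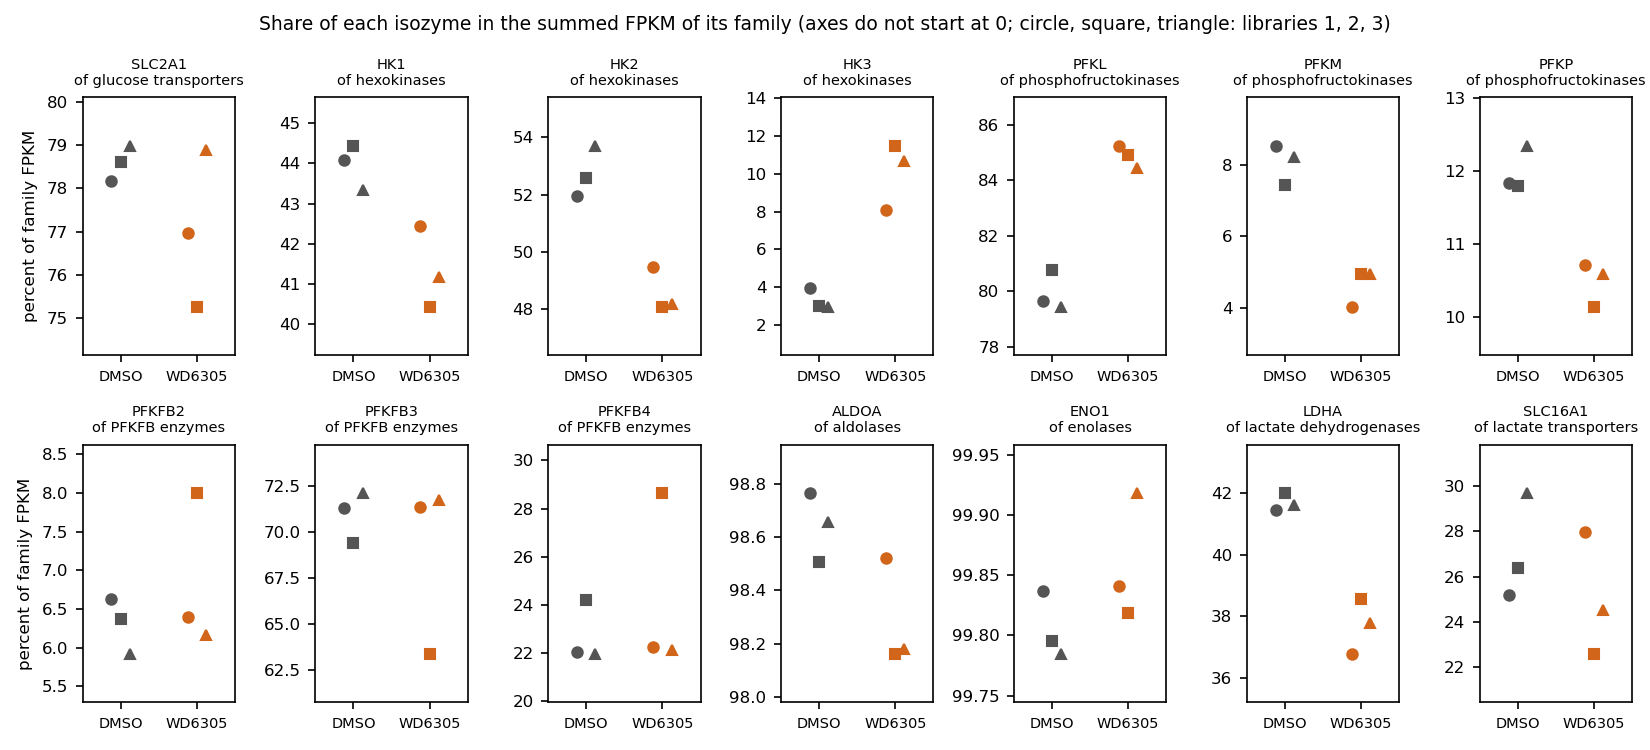
Share of a gene in the summed FPKM of its isozyme family, in percent, 1 panel per gene and 1 point per library (grey: DMSO, orange: WD6305; the axes do not start at 0). HK3 rises from 3.30% to 10.1%, PFKM falls from 8.06% to 4.64% and LDHA falls from 41.7% to 37.7%, without overlap between the groups.

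GPI, which turns glucose phosphate into fructose phosphate, fell from 435.3 ± 19.99 to 368 ± 1.09 CPM (log2 fold change -0.24, adjusted p = 0.00599). At phosphofructokinase, the committed step, PFKM and PFKP fell and PFKL did not pass. PFKM (12:48105139-48146404), the muscle-type subunit, was at 37.5, 31.97 and 34.8 CPM with DMSO and at 16.0, 21.4 and 20.4 CPM with WD6305. Every WD6305 library lay below every DMSO library, the mean was 1.80-fold lower and the log2 difference -0.85 (SE 0.12, adjusted p = 0.00118). PFKP, the platelet-type subunit, had a log2 fold change of -0.26 (adjusted p = 0.0111; 0.0520 with the replicate number as a block). PFKL, the liver-type subunit and the most abundant of the 3 per length, was at 430, 426 and 413 CPM with DMSO and at 413, 449 and 427 CPM with WD6305, and the groups overlapped. Its log2 fold change was 0.02 (95% interval -0.084 to 0.129, adjusted p = 0.787). The PFKL share of the family's FPKM was 79.9% with DMSO and 84.9% with WD6305, while PFKM went from 8.06% to 4.64% and PFKP from 11.99% to 10.5% (exact permutation p = 0.1 each, 0.2 adjusted). PFKM overlaps 941 bases of SENP1 on the opposite strand, whose count reached 203% of that of PFKM and whose own log2 fold change was 0.09 (adjusted p = 0.508). The use of strand in the counting is not stated in the labels or notes.

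The PFKFB enzymes make and remove a fructose bisphosphate that activates phosphofructokinase and is not its product. None of the 3 PFKFB genes passed the test. PFKFB3, the strongly glycolytic form, went from 36.4 ± 1.10 to 31.8 ± 0.412 CPM (log2 fold change -0.20, adjusted p = 0.0576), with no overlap between the groups. It passed in 7 of 17 alternatives, DESeq2 and limma among them (adjusted p = 0.0238 to 0.0484). PFKFB2 and PFKFB4 had log2 fold changes of -0.01 and -0.04 (adjusted p = 0.965 and 0.896). The count of the opposite-strand gene YOD1, which overlaps PFKFB2, reached 924% of that of PFKFB2.

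Of the enzymes that carry out the steps from fructose bisphosphate to phosphoenolpyruvate, ALDOA, PGK1 and ENO1 fell. ALDOA (16:30064164-30070414), the aldolase, was at 1668, 1487 and 1460 CPM with DMSO and at 1275, 1256 and 1216 CPM with WD6305. The log2 fold change of ALDOA was -0.30 (SE 0.06, adjusted p = 0.00794). PGK1 (X:77910739-78129295), which makes ATP, was at 823, 751 and 760 CPM with DMSO and at 588, 650 and 608 CPM with WD6305. PGK1 had a log2 fold change of -0.34 (SE 0.06, adjusted p = 0.0033). ENO1 (1:8861000-8878690, minus strand) was at 3427, 3353 and 3196 CPM with DMSO and at 2655, 2709 and 2596 CPM with WD6305. The log2 fold change of ENO1 was -0.33 (SE 0.05, adjusted p = 0.00269). For each of these 3 genes all WD6305 libraries were below all DMSO libraries.

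The remaining genes of this stretch did not pass. GAPDH went from 2863 ± 175 to 2533 ± 31.1 CPM (log2 fold change -0.18, adjusted p = 0.0596) and TPI1, which interconverts the triose phosphates, from 462 ± 33.7 to 413 ± 6.70 CPM (-0.16, adjusted p = 0.0744). Both had no overlap between groups, and both passed in DESeq2 and in limma on FPKM (adjusted p as low as 0.00555 for GAPDH and 0.0116 for TPI1 over the alternatives). PGAM1, the mutase, had a log2 fold change of -0.06 (95% interval -0.189 to 0.078). ENO2, the neuronal enolase, had -0.76 (SE 0.27, adjusted p = 0.0779) at only 5.33 CPM with DMSO, and ALDOC, the brain aldolase, had 0.04 (adjusted p = 0.811). Neighbouring rows take counts at several of these loci: a same-strand Ensembl row overlaps the whole of ALDOA, reached 21.2% of its count and itself had a log2 fold change of -0.89, while LRRC23 reached 42.9% of ENO2 and RSKR 48.9% of ALDOC. Pseudogene rows of the table took at most 2.08% of the count of a gene here, the highest share being for TPI1.

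PKM, the last step to pyruvate, did not pass the test. PKM was at 3304, 3219 and 3001 CPM with DMSO and at 3193, 3321 and 3099 CPM with WD6305, with overlapping groups. Its log2 fold change was 0.01 (95% interval -0.120 to 0.147, adjusted p = 0.903). The ratio of ENO1 to PKM in FPKM was 1.72 ± 0.0241 with DMSO and 1.36 ± 0.0185 with WD6305 (SD, n = 3 libraries, exact permutation p = 0.1, the smallest possible); this ratio was chosen after its values were seen. Gene-level values do not separate the alternatively spliced PKM forms.

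LDHA and both lactate transporters fell. LDHA (11:18394560-18408218), the subunit that favours lactate, was at 1190, 1110 and 1119 CPM with DMSO and at 842, 909 and 879 CPM with WD6305. LDHA had a log2 fold change of -0.38 (SE 0.05, adjusted p = 0.00118). LDHB, the subunit that favours pyruvate, went from 788 ± 38.4 to 715 ± 0.307 CPM (log2 fold change -0.14, adjusted p = 0.0715), and passed in 5 of 17 alternatives (adjusted p = 0.0203 to 0.0376). LDHA held 41.4%, 42.0% and 41.6% of the LDH FPKM with DMSO and 36.8%, 38.6% and 37.8% with WD6305 (exact permutation p = 0.1, adjusted 0.2).

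SLC16A1 (MCT1, 1:112911847-112957013, minus strand), a lactate and pyruvate transporter, was at 118, 114 and 136 CPM with DMSO and at 89.8, 83.0 and 81.9 CPM with WD6305. All WD6305 libraries were below all DMSO libraries, with a log2 fold change of -0.53 (SE 0.07, adjusted p = 0.00123). SLC16A3 (MCT4), the exporter of strongly glycolytic cells, went from 479 ± 25.3 to 372 ± 38.7 CPM (log2 fold change -0.36, adjusted p = 0.00897). CSNK1D overlaps SLC16A3 on the opposite strand and reached 76.2% of its count, with a log2 fold change of -0.06 of its own.

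**Figure D4:**
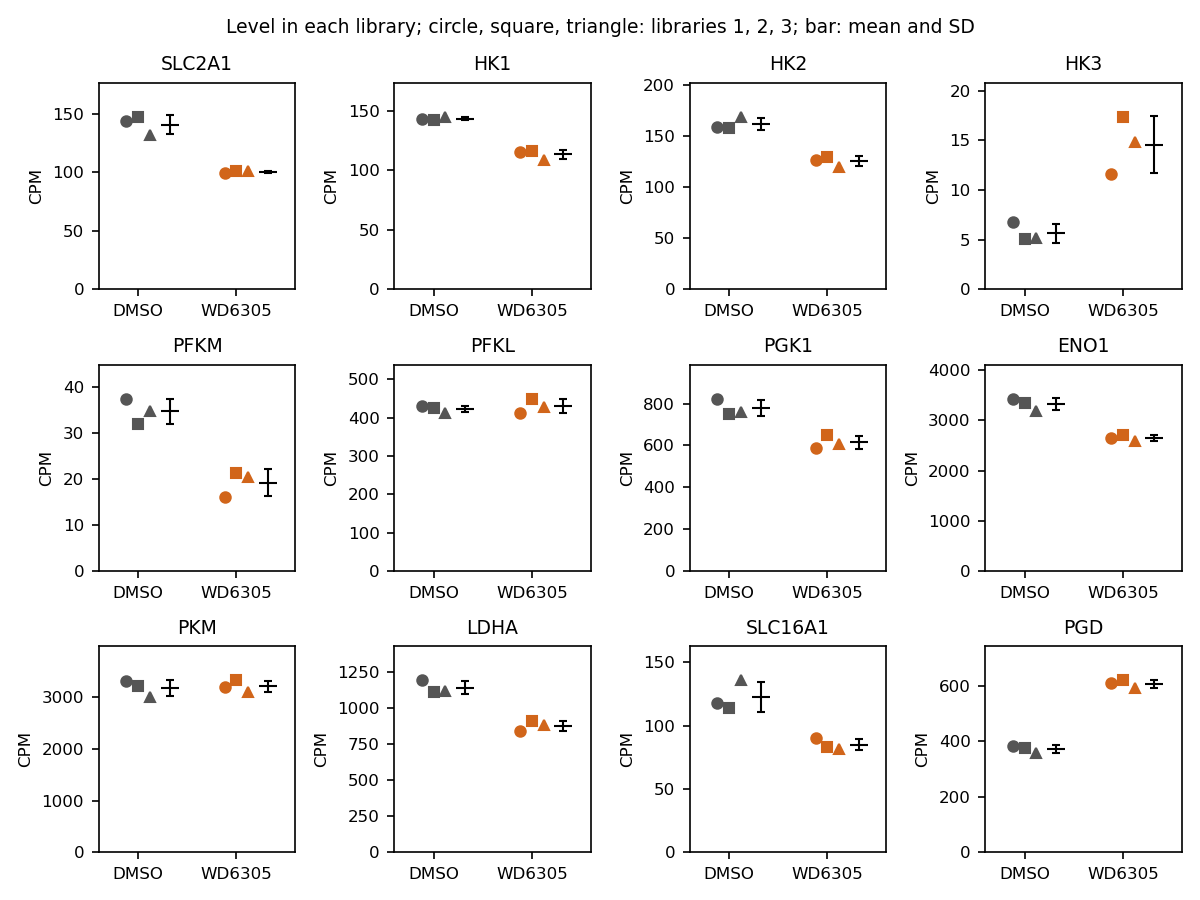
CPM in each library for 12 genes, 1 panel per gene (grey: DMSO, orange: WD6305; symbols mark libraries 1 to 3). SLC2A1, HK1, HK2, PFKM, PGK1, ENO1, LDHA and SLC16A1 are lower in all WD6305 libraries, HK3 and PGD are higher in all of them, and PFKL and PKM overlap.

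At the pyruvate dehydrogenase gate the changes were small. PDHA1 and PDHB, the subunits of the first enzyme of the complex, had log2 fold changes of -0.18 and -0.16 (adjusted p = 0.02 and 0.0476). PDHA1 lost its call in 5 of 17 alternatives (adjusted p = 0.0504 to 0.104) and PDHB in 7 (0.0823 to 0.144), and leaving out DMSO 1, DMSO 2, WD6305 1 or WD6305 3 ended the call of both, WD6305 2 also that of PDHB. PDK1 had 0.32 (SE 0.13, adjusted p = 0.125).

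In the pentose phosphate pathway both genes of the oxidative arm among the 34 rose. PGD (1:10398592-10419808), which releases carbon dioxide and makes NADPH, was at 385, 377 and 358 CPM with DMSO and at 609, 620 and 592 CPM with WD6305. The groups were far apart, the mean was 1.63-fold higher, and the log2 difference 0.70 (SE 0.05, adjusted p = 5.52e-05), the smallest adjusted p of the 34 genes. Its FPKM went from 107 ± 2.39, below that of TALDO1 (119), to 170.5 ± 4.94, above that of TALDO1 (112). PGLS, the lactonase before it, went from 70.9 ± 7.35 to 84.5 ± 1.26 CPM (log2 fold change 0.25, adjusted p = 0.0402). PGLS lost its call in 7 of 17 alternatives (adjusted p = 0.0503 to 0.116), without DMSO 1 or any one WD6305 library among them.

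In the non-oxidative arm 1 of 4 genes fell and 3 did not pass. RPIA (2:88691673-88750929), the isomerase that makes ribose phosphate, was at 32.6, 33.2 and 36.5 CPM with DMSO and at 25.4, 25.4 and 27.0 CPM with WD6305. It fell without overlap, with a log2 fold change of -0.39 (SE 0.07, adjusted p = 0.00556). RPE, the epimerase, had 0.04 (95% interval -0.101 to 0.182), TKT, transketolase, 0.03 (-0.083 to 0.138) and TALDO1, transaldolase, -0.07 (-0.181 to 0.046). KANSL1L, on the opposite strand, overlaps RPE, reached 17.2% of its count and rose itself by 0.67.

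Other genes of these pathways were taken from lists set beside the 34. For comparison with the counts of each list, 12.2% of all genes tested rose and 11.2% fell. Of the 21 tested among 30 further isozymes, transporters and side-route enzymes, 7 rose and 0 fell in edgeR (unadjusted p under 0.05: 8 higher and 2 lower; DESeq2 called 1 lower and limma 2). TXNIP, which restrains glucose uptake, went from 199 ± 4.61 to 353 ± 5.71 CPM (0.83 on the log2 scale, SE 0.04, adjusted p = 2.22e-05). FBP1, the gluconeogenic enzyme that opposes phosphofructokinase, rose by 0.71 (adjusted p = 0.00146) and ADPGK, an ADP-dependent glucokinase, by 0.34 (adjusted p = 0.000776). Rises were also seen in SLC2A5, a fructose transporter, at 0.63, PGM1, at the glucose phosphate branch to glycogen, at 0.42, and PYGL, a glycogen phosphorylase, at 0.20.

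Of 10 tested genes that carry pyruvate into mitochondria or control pyruvate dehydrogenase, 5 fell and 0 rose in edgeR (unadjusted p under 0.05: 2 higher; DESeq2 and limma also 0). The shares over all genes tested were 11.2% lower and 12.2% higher. PDP2, a phosphatase that activates the complex, had a log2 fold change of -0.74 (adjusted p = 0.00101). PDK2, a kinase that inhibits the complex, had -0.71 (adjusted p = 0.00271). DLAT, a core subunit, had -0.35 (adjusted p = 0.00278), MPC2, a subunit of the mitochondrial carrier, -0.32 (adjusted p = 0.0355) and PDHX, the binding subunit, -0.22 (adjusted p = 0.0476). MPC2 lost its call in 6 of 17 alternatives, without DMSO 1, WD6305 1 or WD6305 3 among them (adjusted p = 0.0757 to 0.117), and PDHX in 9, without any one library among them (0.0677 to 0.153). Of 7 further pentose genes tested, PRPS1, which makes the activated ribose for nucleotides, was the only one that fell (-0.32, adjusted p = 0.00264), and 0 rose in edgeR (unadjusted p under 0.05: 1; DESeq2 and limma also 0).

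Known transcriptional and signalling regulators moved in both directions, 3 of 10 higher and 3 lower (12.2% and 11.2% of all genes tested). MYC, which activates glycolytic genes, went from 410 ± 14.8 to 317 ± 5.43 CPM (log2 fold change -0.37, adjusted p = 0.000664), and MLXIPL, a carbohydrate-sensing factor, had -1.19 at 2.46 CPM with DMSO (adjusted p = 0.0353). PRKAA1, the catalytic subunit of the energy sensor AMPK, rose by 0.74 (adjusted p = 0.000231), NFE2L2, a regulator of NADPH-producing enzymes, by 0.34 (adjusted p = 0.0332) and ARNT, the partner of hypoxia-inducible factors, by 0.17 (adjusted p = 0.0313). HIF1A had 0.23 and did not pass (adjusted p = 0.11), but passed in 4 of 17 alternatives: DESeq2, without DMSO 3, and with DMSO 3 and WD6305 1 left out or given a term (adjusted p = 0.00702 to 0.0475). ARNT lost its call in 9 alternatives, without any one library except DMSO 2 among them (adjusted p = 0.0507 to 0.109), and NFE2L2 in 10, without any one library except DMSO 3 (0.0515 to 0.118). MLXIPL lost it in 5 of 14 alternatives, without DMSO 1, DMSO 2, WD6305 1 or WD6305 3 among them (0.0660 to 0.133).

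**Figure D5:**
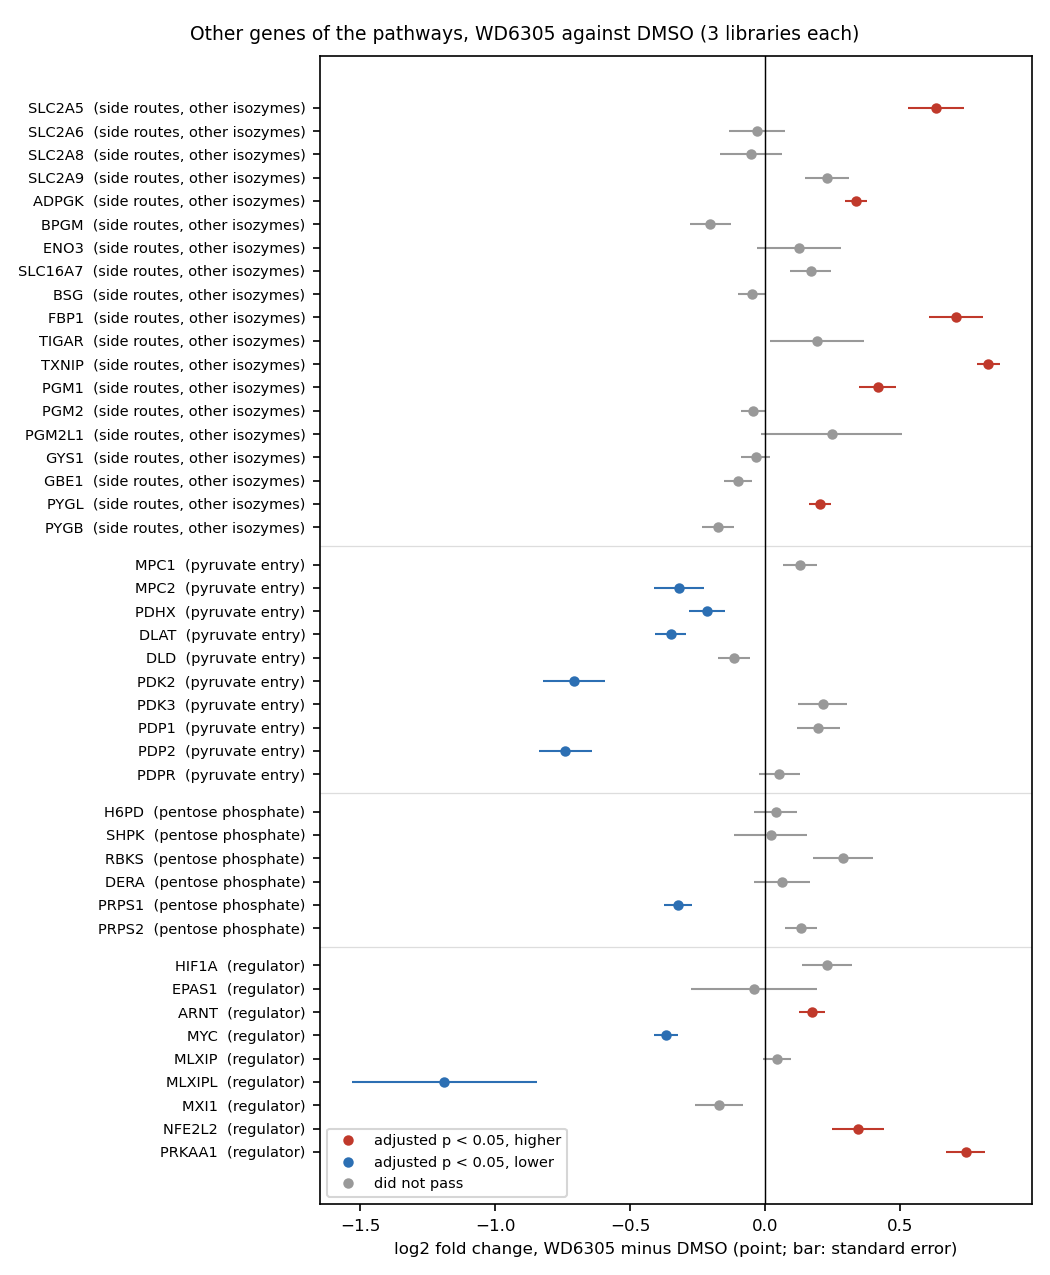
Log2 fold change (WD6305 minus DMSO, point) with its standard error (bar) for further genes of the pathways and their regulators, 3 libraries per group. TXNIP at 0.83 and PRKAA1 at 0.74 are the highest, MLXIPL at -1.19 the lowest.

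Markers of the monocytic lineage changed in the same libraries. All 8 of 8 were detected and changed, 7 higher and CD14 lower, where 23.4% of all genes tested changed in either direction. CSF1R rose from 3.94 to 10.5 CPM and LYZ from 5507 to 10044 CPM. The summed CPM of the 8 markers, mostly LYZ, was 5973 to 6413 with DMSO and 10119 to 11512 with WD6305. Its part in the results was not tested. Lymphoid markers, 3 of 6 in the table, summed to 137 to 181 CPM, mostly NKG7.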

How the data were processed

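Poly(A) RNA of 6 Mon-Mac-6 libraries, 3 with DMSO and 3 with 500 nM WD6305 for 48 h, grouped by the treatment in the labels, was analysed from one deposited table. The tools named, per the submitters' processing notes, are fastp, HISAT2, StringTie and edgeR on GRCh38, without versions. Whole numbers fill the deposited columns of estimated counts, and they pile up at multiples of 4 among low genes: 1071 to 1176 genes per library had a count of 4, against 357 to 380 with a count of 5. The authors' FPKM values correct for length and depth, per the file headers. There were 0 further columns of samples.

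The 34 genes and all lists were chosen with earlier results of these data known. Deposited counts needed no rounding and were filtered with filterByExpr (18138 genes left), scaled with TMM and tested in edgeR 4.0.16 (R 4.3.3), quasi-likelihood, two-sided, with no block for replicate number. Benjamini-Hochberg adjustment ran over all tested genes at a threshold of 0.05, and the standard error was taken from the F value. The biological coefficient of variation was 20.8%. Isozyme shares were tested by exact permutation over libraries. The fits were tested on simulated data. Full statistics were given for 12 genes, those with the smallest adjusted p among changed genes and the leading one of each isozyme family with a change; of other lists, the 4 with the smallest adjusted p and any count of 5 or fewer are named, and SLC2A5, PGM1, PYGL and HIF1A were named after their values were seen. The 17 alternatives were the replicate block, DESeq2 1.42.0, limma 3.58.1 on log2(FPKM + 1) or log2(FPKM + 0.1), 2 other scalings, 2 other filters, counts divided by 4, leaving out each library, and leaving out or fitting a term for DMSO 3 and WD6305 1, where summed keratinocyte transcripts were lowest. Some genes of the lists are counted but not reported here by name.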

Additional observations from a re-analysis of the deposited data

How the results depend on the processing

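Of the 19 genes that passed, 14 kept the call in all 17 alternatives and 5 lost it in at least 1 (SLC2A3, PFKP, PDHA1, PDHB and PGLS); 0 changed sign. Of the 15 that did not pass, 6 passed in at least 1 (PFKFB3, TPI1, GAPDH, ENO2, LDHB and PDK1). The 16 genes lower became 21 in DESeq2 and in limma on log2(FPKM + 1), 20 with library sizes alone, which moved the median of all genes to -0.0231, and 13 to 18 without single libraries; 3 higher became 2 to 3.

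With the replicate number as a block, 13 of the 34 genes fell and 2 rose, and 3204 of all genes changed (1736 higher and 1468 lower). The labels name no batch, and the numbers were not taken as pairs. Same-numbered libraries deviated from their group means with correlations of -0.234, 0.0139 and -0.153. DMSO 3 and WD6305 1, the libraries lowest in keratinocyte transcripts, had 0.230. Deviations within a group sum to 0, so this shared deviation bears on the other values. The correlations therefore cannot decide whether same-numbered libraries were paired.

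Leaving out single libraries gave 2756 to 4640 changed genes against 4249 (1446 to 2563 higher, 1310 to 2077 lower), lowest without WD6305 3. Side-route genes lower, 0 at first, were 2 in both limma fits, 1 in DESeq2, with library sizes alone, the FPKM filter, counts divided by 4, and with DMSO 3 and WD6305 1 left out or given a term, and 0 to 1 without single libraries. Pyruvate-entry genes lower went from 5 to 3 with the block, no filter, or without DMSO 3 and WD6305 1, and to 3 to 4 without single libraries. Regulators higher went from 3 to 1 with the block, library sizes alone or no filter, and to 1 to 3 without single libraries. The cause was not tested.

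Sign changes were seen in genes that did not pass, with log2 fold changes near 0. PFKL had -0.0019 and -0.00196 in limma and -0.00129 with library sizes alone (-0.0116 to 0.0511 without single libraries). PKM had -0.00961 and -0.00964 in limma, -0.00981 with library sizes alone and -0.0224 without DMSO 3 and WD6305 1 (-0.0248 to 0.0422 without single libraries). Without that pair PFKFB2 had 0.0174, PFKFB4 0.0185 and TKT -0.00309. Without single libraries PFKFB2 ranged from -0.213 to 0.0921, PFKFB4 from -0.243 to 0.0683, ALDOC from -0.0189 to 0.128 and TKT from -0.00948 to 0.0468. The differences in share, in percentage points, ranged from -0.0267 to 0.891 for PFKFB2, -3.61 to 0.581 for PFKFB3 and -0.555 to 2.72 for PFKFB4, with the sign turned without WD6305 2. With 3 libraries per group, the scarce transcripts ENO2 (SE 0.27), HK3 (SE 0.17) and PFKFB2 (SE 0.17) had the largest standard errors of the 34.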
